A study of Mus musculus with 12 samples.

Results

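The genes described here are 10 genes of the lysosome and of autophagy, chosen by symbol from the 21493 genes listed in each count file. They code for 5 cathepsins (Ctsb, Ctsd, Ctsk, Ctss and Ctsl), 2 lysosome-associated membrane proteins (Lamp1 and Lamp2), the autophagy receptor p62 (Sqstm1), the autophagosome protein LC3B (Map1lc3b) and the transcription factor TFEB (Tfeb). All 10 were found, and all 10 were among the 13158 genes with enough reads to be tested. They were measured by poly-A RNA sequencing of adult cardiomyocytes isolated by enzymatic perfusion from the hearts of 3-month-old mice. Des+/+ mice carried the gene for desmin, the muscle intermediate filament protein, and Des-/- mice lacked it. Mice of each genotype had either swum as a stress exercise (swim) or not (non-swim), which gave 4 groups of 3 libraries, 12 in all. By the methods the cardiomyocytes of several animals were pooled for each library, which makes each of the numbered libraries 1 to 3 of a group a pool. The same methods give these genotype names to mice of 129SV background that carry a GFP reporter driven by the alpha myosin heavy chain promoter, in both genotypes. The sample labels do not mention that reporter.

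Cathepsins are proteases that work in the acid interior of the lysosome. Cathepsin D is an aspartic protease, and cathepsins B, L, K and S are cysteine proteases. Cathepsin K is best known from osteoclasts and is also made by fibroblasts, while cathepsin S is abundant in macrophages and other antigen-presenting cells. LAMP1 and LAMP2 are the main glycoproteins of the lysosomal membrane, and loss of LAMP2 causes Danon disease, a cardiomyopathy. In autophagy, cytoplasm is enclosed in a double membrane to which LC3 is coupled, p62 ties ubiquitinated cargo to LC3, and the vesicle then fuses with a lysosome. TFEB, with its relatives TFE3 and MITF, binds E-box elements upstream of many lysosomal genes. The comparisons ask how these transcripts differ between genotypes at rest and after swimming, and with swimming within a genotype.

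The element bound by TFEB is built on the letters CACGTG. The longest form searched here was TCACGTGA, called the full element below. RefSeq promoters on GRCm38.p6, from 250 bases before to 50 bases after the start site, matched 9 of the 10 genes and gave 11 windows, as Tfeb has 3. Ctsb had no entry. CACGTG, which reads the same on both strands, lay in 3 of the 11 windows, those of Lamp1, Ctsd and Ctsl, and in 7.15% of all 32851 windows. TCACGTG on either strand lay in 2 of the 11 windows and in 3.77% of all. The full element lay in 1, that of Ctsd, and in 0.974% of all. These motifs overlap, as the longer ones contain the shorter. The sequence before the start site is given below for Lamp1, which holds the motif 4 times, and for the 3 genes that differed between genotypes, none of which holds it. Capitals mark CACGTG with a flanking T or A of the full element. For Ctsd only a window of 30 bases around the full element is given, whose first base lies 99 bases before the start site. Each is printed 5′ to 3′ on the strand of its gene. The stretch for Map1lc3b ends where the GENCODE gene model begins.
Lamp1, chr8:13158911-13159160, plus strand: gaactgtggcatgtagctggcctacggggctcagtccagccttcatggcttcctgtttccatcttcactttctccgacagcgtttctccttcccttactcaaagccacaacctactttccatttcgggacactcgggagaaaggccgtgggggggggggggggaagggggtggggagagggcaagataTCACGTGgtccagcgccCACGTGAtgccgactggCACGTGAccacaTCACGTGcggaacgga
Ctsd, chr7:142387908-142387937, minus strand: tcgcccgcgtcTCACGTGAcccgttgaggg
Ctss, chr3:95526536-95526785, plus strand: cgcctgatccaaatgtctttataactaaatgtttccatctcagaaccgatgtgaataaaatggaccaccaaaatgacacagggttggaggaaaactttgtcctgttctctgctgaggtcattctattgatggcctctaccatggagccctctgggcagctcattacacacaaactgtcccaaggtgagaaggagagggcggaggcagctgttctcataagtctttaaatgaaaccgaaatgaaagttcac
Ctsk, chr3:95498960-95499209, plus strand: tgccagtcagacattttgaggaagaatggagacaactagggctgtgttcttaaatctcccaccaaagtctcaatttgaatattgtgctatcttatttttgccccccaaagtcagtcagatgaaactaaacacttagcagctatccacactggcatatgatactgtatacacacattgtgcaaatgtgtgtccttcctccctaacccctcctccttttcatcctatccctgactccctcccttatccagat
Map1lc3b, chr8:121590188-121590360, plus strand: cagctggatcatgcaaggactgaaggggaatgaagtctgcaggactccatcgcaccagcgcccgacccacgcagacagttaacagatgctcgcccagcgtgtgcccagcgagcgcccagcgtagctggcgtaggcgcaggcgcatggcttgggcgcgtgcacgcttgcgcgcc
A match is a description of the letters and not a binding site, and its lack says only that these letters are not in the window. Ctsk and Ctss are neighbours on chromosome 3, both on the plus strand, with 17423 bases between them.

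Libraries held 4320819 to 12072443 reads in genes. Levels are given in CPM, read counts per 1000000 reads after scaling of library totals by TMM, and 3 counts, taken as the floor, correspond to at most 0.656 CPM. Des itself, measured first, averaged 2367 ± 1137 CPM in Des+/+ and 59.5 ± 11.3 CPM in Des-/- mice that had not swum (SD, n = 3 each). After swimming it averaged 1273 ± 336 and 96.5 ± 4.71 CPM (SD, n = 3 each). The log2 changes were -5.31 (edgeR adjusted p 1.57e-04) and -3.72 (adjusted p 0.00323). Every cardiomyocyte marker of a list of 12 had reads in every library, but the sum of the list ranged from 8643 to 114200 CPM. The lowest sum was that of Des-/- non-swim library 3. That library also had the highest sum of 14 macrophage markers, 4437 CPM against 486 and 777 in the other Des-/- non-swim libraries and 267 to 392 in the Des+/+ non-swim libraries. Its sum of 10 fibroblast markers was 43320 CPM, against 12850 and 16970 in its own group and 6260 to 7578 in the Des+/+ non-swim group. Des-/- swim library 3 was also highest of its group, with 1496 CPM for macrophage and 16450 for fibroblast markers. Most results that touch these libraries are given with and without them. In such bulk samples, more cells of a type and more RNA per cell cannot be told apart.

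Between genes, levels were compared as CPM per kilobase of annotated exon. In Des+/+ non-swim libraries Ctsd was highest, at 627 ± 169 CPM per kilobase (SD, n = 3), followed by Lamp1 at 298 ± 7.52, Sqstm1 at 169 ± 45.9, Ctsb at 117 ± 5.85 and Ctsl at 61.3 ± 3.15 (SD, n = 3 each). The ranges of these 5 genes did not overlap. Map1lc3b at 28.1 ± 3.00 and Lamp2 at 27.8 ± 2.18 CPM per kilobase (SD, n = 3 each) overlapped each other. So did the 3 lowest, Ctsk at 10.4 ± 1.81, Tfeb at 9.40 ± 0.775 and Ctss at 8.70 ± 3.29 (SD, n = 3 each). In Des-/- non-swim libraries Ctsd was again highest in mean, at 793 ± 839 CPM per kilobase (SD, n = 3), but the spread was wide. There Ctss was at 198 ± 310 and Ctsk at 36.6 ± 25.0 (SD, n = 3 each), and Tfeb was lowest in every library of the group.

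Without swimming, 3 of the 10 genes differed between genotypes by edgeR's quasi-likelihood test with Benjamini-Hochberg adjustment over all genes (adjusted p under 0.05). Ctss and Ctsk were higher and Map1lc3b was lower in Des-/- libraries. Of all 13158 genes, 32.0% were called in this comparison, so 3 of 10 is close to the background. By direction, 2 of 10 were higher against 14.0% of all genes, and 1 of 10 was lower against 18.0%. With upper-quartile scaling the median of all genes moved from a log2 change of 0.04 to 0.14 and the share of higher genes among all called rose (1840 higher and 2370 lower with TMM, 2492 and 2034 with upper quartiles), but the same 3 genes were called in the same directions. The libraries of the genotypes did not overlap for Ctsk, Ctss, Map1lc3b and Tfeb, 4 of 10 genes against 47.9% of all. The median log2 change of the 10 genes was 0.23, against 0.04 for all genes, and -0.27 without Des-/- non-swim library 3.

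**Figure D1:**
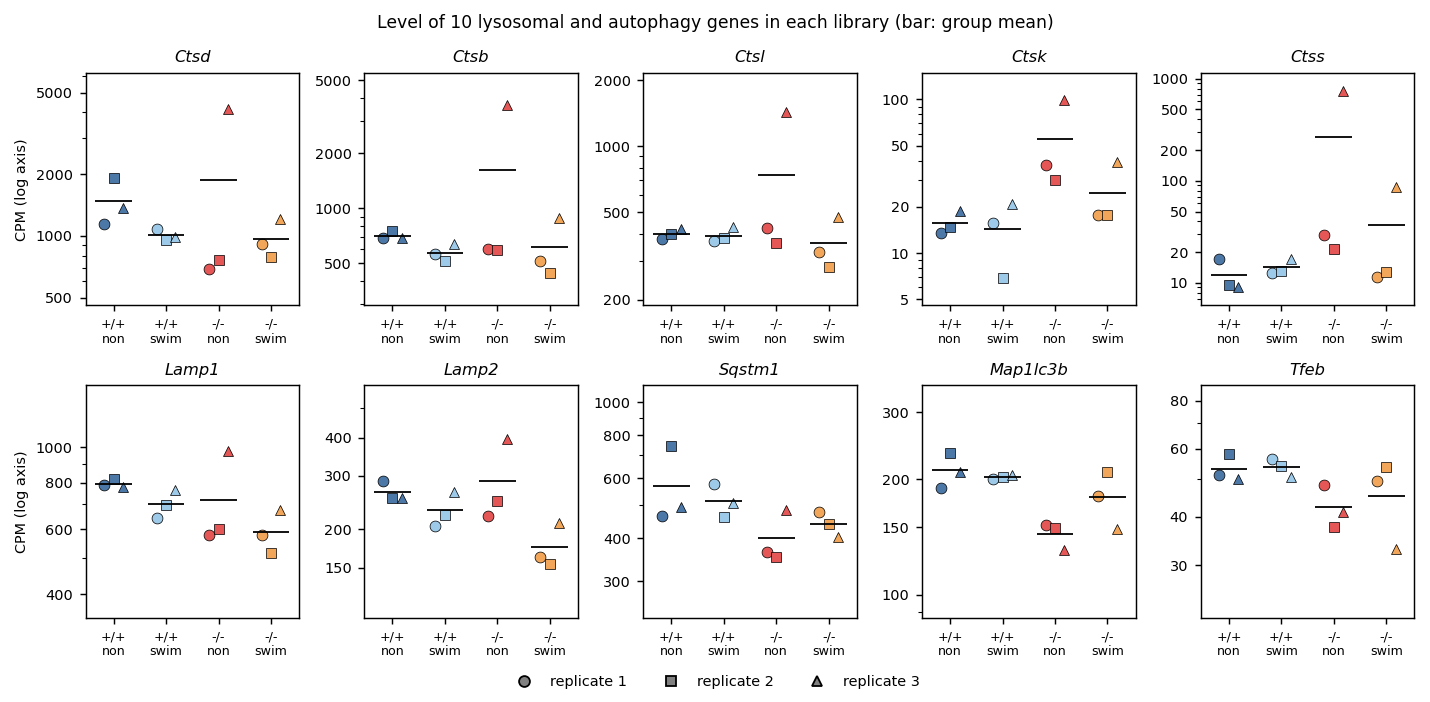
CPM of each of the 10 genes on a log axis, for 3 libraries in each of 4 groups (columns: Des+/+ non-swim, Des+/+ swim, Des-/- non-swim, Des-/- swim), with symbols for the replicate numbers and a bar at the group mean. Des-/- non-swim library 3 (red triangle) is the highest of all 12 libraries for the 5 cathepsins, Lamp1 and Lamp2, and the lowest for Map1lc3b.

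Ctss, cathepsin S (GRCm38 chromosome 3, 95526786 to 95556403), had the largest difference. Its level was 17.0, 9.47 and 9.02 CPM in the Des+/+ non-swim libraries and 29.2, 21.6 and 755 CPM in the Des-/- non-swim libraries. The groups did not overlap, and library 3 of the Des-/- group was far above the other 5 libraries. The log2 change was 4.51 (SE 1.30, edgeR adjusted p 0.0218). Without Des-/- non-swim library 3 it was 1.12 (adjusted p 0.273), and without library 3 of both Des-/- groups 1.17 (adjusted p 0.0108). The difference was also not called when any 1 Des+/+ non-swim library was left out (log2 changes 4.34 to 4.86, adjusted p 0.0534 to 0.0808). DESeq2, which withholds a p where single counts stand far from their group, gave none for Ctss or Ctsb.

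Ctsk, cathepsin K (GRCm38 chromosome 3, 95499256 to 95509362), was at 13.6, 14.7 and 18.8 CPM in the Des+/+ non-swim libraries and at 37.3, 30.0 and 98.8 CPM in the Des-/- non-swim libraries. All 3 Des-/- libraries lay above all Des+/+ libraries, and library 3 was again the highest. The log2 change was 1.82 (SE 0.50, edgeR adjusted p 0.0183). It was 1.10 without Des-/- non-swim library 3 (adjusted p 0.0792) and 1.17 without library 3 of both Des-/- groups (adjusted p 0.0229). The call was also lost without library 1 (adjusted p 0.0598) or 2 (adjusted p 0.0654) of the Des+/+ non-swim group, at log2 changes of 1.72 and 1.77.

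Map1lc3b, which codes for LC3B (GRCm38 chromosome 8, 121590361 to 121598760), was at 190, 235 and 210 CPM in the Des+/+ non-swim libraries and at 152, 149 and 131 CPM in the Des-/- non-swim libraries. It was the only autophagy gene of the 10 to be called, and its groups did not overlap. The log2 change was -0.55 (SE 0.14, edgeR adjusted p 0.0144). Its spread within groups was small, and library 3 was here the lowest of the Des-/- libraries. Without that library the change was -0.48 (adjusted p 0.0617), without library 3 of both Des-/- groups -0.42 (adjusted p 0.0429), and without Des+/+ non-swim library 2 -0.47 (adjusted p 0.0577). It also missed the study's own filter, which asks for a log2 change of at least 0.6.

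The marker lists moved with these genes. Without swimming, 11 of 14 macrophage and 9 of 10 fibroblast markers were called higher in Des-/- libraries, and 11 of 12 cardiomyocyte markers were called lower, with median log2 changes of 2.61, 1.36 and -2.13. Without Des-/- non-swim library 3 the counts were 2, 3 and 10, and the medians 1.17, 1.35 and -1.78. Without library 3 of both Des-/- groups they were 10, 10 and 10, with medians of 1.23, 1.41 and -1.71. Of all genes, 910 of 13296 were higher and 1895 lower in the first of these fits, and 1797 of 13216 higher and 1906 lower in the second. With all 12 libraries, none of 8 endothelial markers was called, and of 8 mural cell markers 1 was called lower. Without Des-/- non-swim library 3 none of either list was called. Without library 3 of both Des-/- groups 2 endothelial markers were called higher and 1 mural marker lower. Across the 12 libraries log2 CPM of Ctss and of the summed macrophage markers had a Pearson r of 0.985, and 0.913 over the 10 libraries without library 3 of the Des-/- groups. For Ctsk and the fibroblast sum these values were 0.941 and 0.837, and for Map1lc3b and the cardiomyocyte sum 0.854 and 0.716. Ctss and the fibroblast sum had 0.898 and 0.657, and Ctsk and the macrophage sum 0.880 and 0.671. Ctsb and Ctsl had 0.865 and 0.871 with the macrophage sum over 12 libraries, but 0.021 and 0.265 over the 10. Ctsd had -0.193 with the cardiomyocyte sum over 12 libraries and 0.931 over the 10. Map1lc3b was inversely related to the fibroblast sum (-0.903 and -0.841) and the macrophage sum (-0.869 and -0.875). These are descriptions over libraries that share genotype, swimming and library scaling, and the part of the cell mix in these differences was not tested. Among the macrophage markers Lyz2, the most abundant, was at 106 ± 28.1 CPM in Des+/+ and 804 ± 1047 CPM in Des-/- non-swim libraries (SD, n = 3 each). Among fibroblast markers Gsn was the most abundant over all groups, at 3339 ± 590 and 5070 ± 2301 CPM in the same groups (SD, n = 3 each). Among cardiomyocyte markers it was Myh6, at 26160 ± 9550 and 4710 ± 4436 CPM (SD, n = 3 each). No marker of these lists was at 0 in any library.

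**Figure D2:**
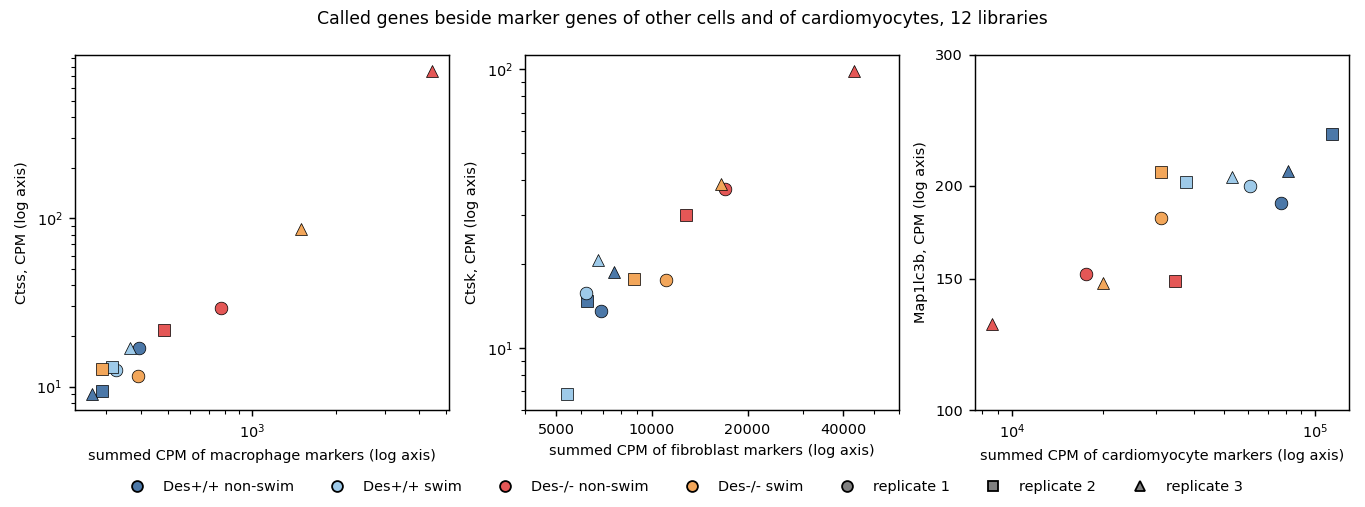
CPM of Ctss, Ctsk and Map1lc3b against the summed CPM of 14 macrophage, 10 fibroblast and 12 cardiomyocyte markers, all on log axes, 1 point per library coloured by group with symbols for replicates. Des-/- non-swim library 3 lies at the end of each panel, at 755 CPM of Ctss and 4437 CPM of macrophage markers.

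The other cathepsins were not called. Ctsd was at 1144, 1916 and 1364 CPM in the Des+/+ non-swim libraries and at 689, 765 and 4141 CPM in the Des-/- non-swim libraries. Thus 2 Des-/- libraries lay below all Des+/+ libraries and the third lay above them. The log2 change was 0.34 (SE 0.56, edgeR adjusted p 0.676), and the direction turned without library 3: without that library it was -1.02 (adjusted p 0.0147), and without library 3 of both Des-/- groups -0.95 (adjusted p 0.00909). Ctsd was then called lower.

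Ctsb, at 686, 747 and 685 CPM in the Des+/+ non-swim libraries, was at 601, 593 and 3635 CPM in the Des-/- non-swim libraries. Its pattern was that of Ctsd, with 2 libraries below and 1 above all Des+/+ libraries, and the log2 change was 1.19 (SE 0.59, edgeR adjusted p 0.143). Ctsl, with 377, 397 and 418 CPM against 424, 364 and 1433 CPM, had a log2 change of 0.90 (SE 0.43, adjusted p 0.128). Without Des-/- non-swim library 3 these changes were -0.24 (adjusted p 0.524) and -0.0080 (adjusted p 0.983), and without library 3 of both Des-/- groups -0.17 and 0.056. Without library 2 of that group both were called, at 1.58 (adjusted p 0.0462) and 1.22 (adjusted p 0.0352).

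The make-up of the 5 cathepsins, which does not depend on library scaling, was compared as each gene's share of their summed CPM per kilobase. Ctsd made up 71.6, 80.2 and 74.7% in the Des+/+ non-swim libraries and 58.1, 63.2 and 55.0% in the Des-/- non-swim libraries. Here library 3 had the direction of the other Des-/- libraries, although its Ctsd level did not. The share of Ctsb was 12.1 to 16.7% against 18.7 to 19.7%, that of Ctsk 0.958 to 1.60% against 2.04 to 4.90%, and that of Ctss 0.686 to 1.84% against 3.09 to 17.4%. For these 4 genes the groups did not overlap, and the exact two-sided permutation p was 0.1 for each, the smallest that 3 libraries against 3 allow (0.25 adjusted over the 10 comparisons of shares made). As the 5 shares add up to the whole, a lower Ctsd share goes with higher shares elsewhere. These 4 differences are therefore not separate results. The share of Ctsl overlapped (exact permutation p 0.3). After swimming the Ctsd share was 68.2 to 73.0% in Des+/+ and 62.4 to 71.3% in Des-/- libraries, which overlapped (exact permutation p 0.5).

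**Figure D3:**
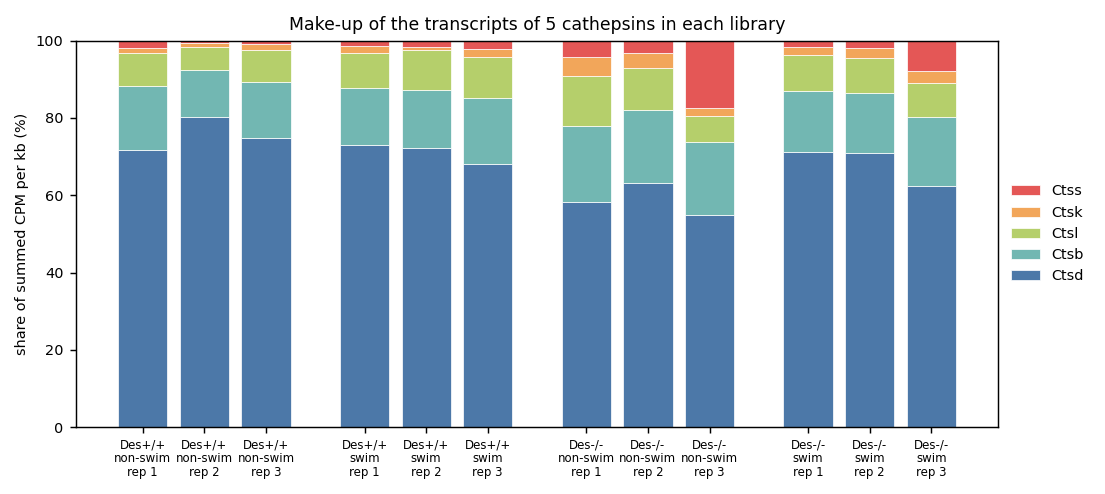
Stacked bars of each cathepsin's percentage of the summed CPM per kilobase of 5 cathepsins, 1 bar per library. The Ctsd part is smaller in all 3 Des-/- non-swim libraries (55.0 to 63.2%) than in all Des+/+ non-swim libraries (71.6 to 80.2%), and Ctss takes up 17.4% in Des-/- non-swim library 3.

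Of the membrane proteins, Lamp1 was at 791, 819 and 781 CPM in the Des+/+ non-swim libraries and at 580, 600 and 979 CPM in the Des-/- non-swim libraries. Lamp2 was at 289, 253 and 253 CPM against 222, 248 and 395 CPM. For both, libraries 1 and 2 of the Des-/- group lay below every Des+/+ library and library 3 above. The log2 changes were -0.15 (SE 0.21, edgeR adjusted p 0.625) and 0.12 (SE 0.21, adjusted p 0.700). Without Des-/- non-swim library 3 that of Lamp1 was -0.43 and that of Lamp2 -0.17. Without library 3 of both Des-/- groups that of Lamp2 was -0.11.

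Sqstm1 was at 464, 745 and 495 CPM in the Des+/+ non-swim libraries and at 366, 353 and 483 CPM in the Des-/- non-swim libraries. The groups overlapped in 1 library, and library 2 of the Des+/+ group was far above the rest. The log2 change was -0.50 (SE 0.21, edgeR adjusted p 0.0801), and among the fits that left out 1 library it was called only without Des-/- non-swim library 3, at -0.66 (adjusted p 0.0494). Without Des+/+ non-swim library 2 it was -0.26 (adjusted p 0.328). Tfeb was at 51.3, 58.3 and 50.3 CPM against 48.4, 37.7 and 41.2 CPM. All Des-/- libraries lay below all Des+/+ libraries, but the log2 change of -0.33 (SE 0.17, adjusted p 0.163) was not called.

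After swimming, none of the 10 genes was called between genotypes with edgeR, none had an unadjusted p under 0.05, and none was called with DESeq2, which gave no p for Ctss and Ctsb. Of all genes 10.6% were called. The libraries of the genotypes overlapped for all 10 genes, against 35.9% of all genes with no overlap. Ctss was at 12.5, 13.1 and 16.9 CPM in the Des+/+ swim libraries and at 11.5, 12.7 and 87.0 CPM in the Des-/- swim libraries, a log2 change of 1.40 (SE 1.19, edgeR adjusted p 0.451). Only library 3 stood above the Des+/+ libraries, and without it the change was -0.23. Ctsk was at 15.7, 6.85 and 20.8 CPM against 17.6, 17.7 and 39.0 CPM, a log2 change of 0.79 (SE 0.51, adjusted p 0.314), or 0.30 without that library. Map1lc3b was at 200, 203 and 206 CPM against 181, 209 and 148 CPM, a log2 change of -0.18 (SE 0.14, adjusted p 0.432). Without Des-/- swim library 3 that change was -0.058.

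The remaining 7 genes had log2 changes between -0.40 for Lamp2 (SE 0.22, edgeR adjusted p 0.236) and 0.11 for Ctsb (SE 0.58, adjusted p 0.917). For Tfeb, 3 Des+/+ swim libraries at 50.8 to 56.3 CPM faced Des-/- swim libraries at 49.5, 53.8 and 33.0 CPM, a log2 change of -0.25 (SE 0.17, adjusted p 0.357). Without Des-/- swim library 3 that change was -0.061. The median log2 change of the 10 genes was -0.14, against 0.02 for all genes. In this comparison 1 of 14 macrophage and 1 of 10 fibroblast markers were called higher and 1 of 12 cardiomyocyte markers was called lower.

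**Figure D4:**
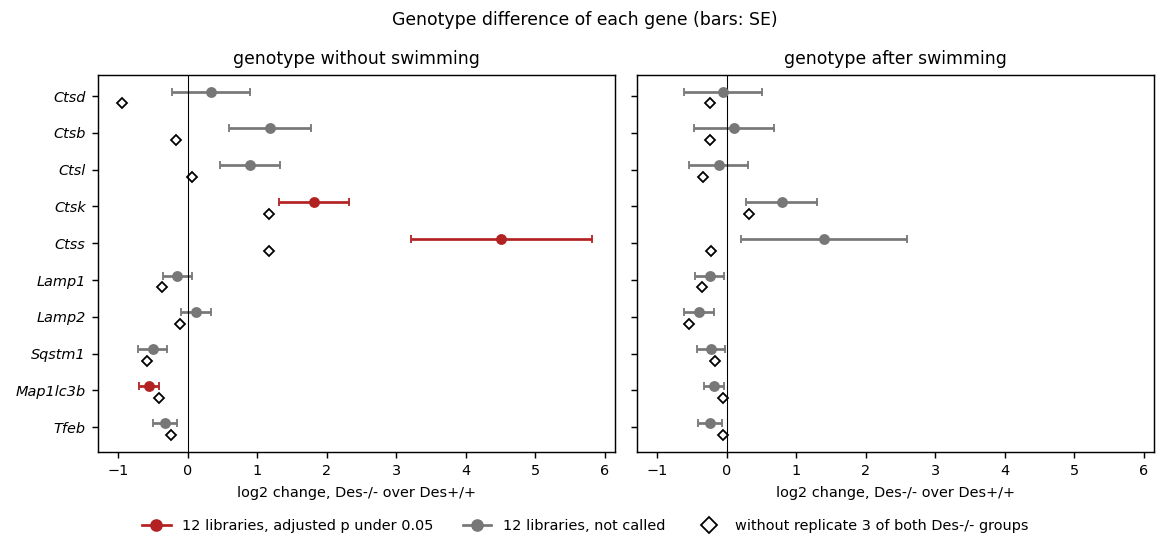
Log2 change (Des-/- over Des+/+) of each gene without and after swimming, with bars of 1 SE, red where the edgeR adjusted p is under 0.05. Open diamonds give the change without library 3 of both Des-/- groups, which for Ctss is 1.17 instead of 4.51 without swimming, and for Ctsd -0.95 instead of 0.34.

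Whether the genotype difference itself changed with swimming was tested as an interaction. None of the 10 genes was called with edgeR, nor with DESeq2 among the 8 to which it gave a p, none had an unadjusted edgeR p under 0.05, and of all genes 0% were called with edgeR. The largest interaction was that of Ctss, at a log2 of -3.11 (SE 1.68, edgeR adjusted p 0.365), which was 0.27 without Des-/- non-swim library 3 and -1.39 (adjusted p 0.128) without library 3 of both Des-/- groups. That of Map1lc3b was 0.38 (SE 0.20, adjusted p 0.370). A call without swimming and none after it is thus not shown to be a difference between the conditions.

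In Des+/+ mice, swimming gave no called change in the 10 genes with edgeR, nor with DESeq2 in the 8 to which it gave a p, and none had an unadjusted edgeR p under 0.05. Of all genes 0.0912% were called. Libraries did not overlap for Ctsb, Ctsd and Lamp1, 3 of 10 genes against 31.3% of all, and the log2 changes of these were -0.31 (SE 0.58), -0.55 (SE 0.56) and -0.19 (SE 0.21), with edgeR adjusted p from 0.610 to 0.808. The swim libraries had 960 to 1080 CPM of Ctsd, against 1144 to 1916 CPM in the non-swim libraries. The other 7 genes had log2 changes from -0.20 (Lamp2) to 0.26 (Ctss), and the change of each of the 10 was smaller than its SE.

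In Des-/- mice, no gene of the 10 was called with edgeR after adjustment, nor with DESeq2 among the 8 to which it gave a p, against 0.0228% of all genes. Of the 10, 5 had an unadjusted p under 0.05 (Ctss, Ctsb, Ctsk, Ctsl and Lamp2), against 16.7% of all genes. For Ctss, Ctsb, Ctsk and Ctsl the swim and non-swim libraries overlapped. Lamp2 was at 222, 248 and 395 CPM in non-swim and at 163, 154 and 210 CPM in swim libraries, a log2 change of -0.72 (SE 0.22, edgeR adjusted p 0.199). It was the only one of the 10 with no overlap, against 19.4% of all genes. The log2 change was -2.85 (SE 1.20) for Ctss, -1.39 (SE 0.59) for Ctsb, -1.16 (SE 0.50) for Ctsk and -1.03 (SE 0.43) for Ctsl, with adjusted p from 0.269 to 0.279. Without library 3 of the non-swim group these were 0.55, 0.045, -0.44 and -0.12, and that of Lamp2 was -0.41. Without library 3 of both Des-/- groups they were -1.06, -0.30, -0.91 and -0.34, and that of Lamp2 was -0.55, with edgeR adjusted p from 0.166 to 0.421. Map1lc3b had a log2 change of 0.32 (SE 0.15, adjusted p 0.299) and overlapped. The genotype and swimming comparisons share the Des-/- non-swim libraries, and so the same library enters both.

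The wider pathway was followed in 8 lists of other genes, 143 in all, of which 142 were in the files and 138 were tested. Without swimming, Des-/- libraries had higher levels of 17 and lower levels of 31 at the threshold. Of all genes, 14.0% were called higher and 18.0% lower, the background for each list below where all 12 libraries were used. Most of the higher genes were lysosomal hydrolases and their cofactors, 12 of 35, with 1 lower and a median log2 change of 0.85. Acp5, tartrate-resistant acid phosphatase, was at 1.90 CPM in Des+/+ non-swim libraries and 5.81 times that in Des-/- non-swim libraries in mean, a fitted log2 change of 2.51 (SE 0.85, edgeR adjusted p 0.0419), although the groups overlapped. Smpd1, acid sphingomyelinase, was the lower one, at a log2 change of -1.27 (SE 0.20, adjusted p 0.00125). Without Des-/- non-swim library 3, 0 of the 35 were called higher and 1 lower with edgeR, and the median was 0.23. Of all 13296 genes tested in that fit, 910 were called higher and 1895 lower. Without library 3 of both Des-/- groups, 5 of the 35 were higher and 2 lower. In that fit 1797 of all 13216 genes were higher and 1906 lower. Of the 12 fits that left out 1 library, Acp5 was called in 5, with log2 changes from 1.02 to 3.45, and Smpd1 in all 12. Acp5 was not called without library 3 of both Des-/- groups.

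Of 7 other cathepsins 1 was higher and 1 lower, and of 3 cathepsin inhibitors 1 was higher. Ctsz, cathepsin Z, rose from 88.8 to 282 CPM, a log2 change of 1.67 (SE 0.41, edgeR adjusted p 0.0112), and was called in all 12 fits that left out 1 library, with 0.91 as the lowest value. Ctsf, cathepsin F, changed by -0.71 (SE 0.22, adjusted p 0.0271) and was called in 8 of the 12. Cstb, cystatin B, an inhibitor of cysteine cathepsins, changed by 1.64 (SE 0.47, adjusted p 0.0215) and was called in 8 of the 12, with 0.73 (adjusted p 0.0903) without Des-/- non-swim library 3.

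Of 16 other genes of the lysosomal membrane 2 were higher and 3 lower, and of 15 subunits and partners of the V-ATPase, the proton pump of the lysosome, 0 were higher and 2 lower. Cln3, the gene of juvenile Batten disease, changed by 0.91 (SE 0.27, edgeR adjusted p 0.0226) and was not called without Des-/- non-swim library 3 (0.54, adjusted p 0.102). Tmem106b, a lysosomal membrane protein, changed by -0.92 (SE 0.14, adjusted p 0.00122) and Atp6v1e1, a V-ATPase subunit, by -0.73 (SE 0.13, adjusted p 0.00243). Both of the latter were called in all 12 fits that left out 1 library.

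The number called in all 8 lists was 48, and it was 30, 24 and 28 without library 1, 2 or 3 of the Des+/+ non-swim group and 27 without Des-/- non-swim library 3. Of all genes 32.0% were called with all libraries, and 25.5, 19.5, 21.9 and 21.1% in these fits, in the same order. In the autophagy lists no gene was called higher without swimming. Of 30 genes of autophagosome formation 10 were lower (33.3%, median log2 change -0.22), and of 14 receptors and mitophagy genes 8 were lower (57.1%, median -0.68). Among all genes 18.0% were lower. Map1lc3a, which codes for the LC3A relative of LC3B, changed by -1.63 (SE 0.26, edgeR adjusted p 0.00140), from 341 to 110 CPM, and was called in all 12 fits that left out 1 library. Without Des-/- non-swim library 3, 8 of the 30 and 6 of the 14 were called lower, and the same numbers were called without library 3 of both Des-/- groups. Of all genes, 1895 of 13296 were lower in the first of these fits and 1906 of 13216 in the second.

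Of 18 relatives and regulators of TFEB 1 was higher and 6 were lower. Tfe3, a relative of TFEB, changed by 0.61 (SE 0.16, edgeR adjusted p 0.0147), or 0.45 (adjusted p 0.0687) without Des-/- non-swim library 3. Rragd, a Rag GTPase of the mTORC1 pathway, changed by -2.20 (SE 0.33, adjusted p 0.00120), from 122 to 26.7 CPM, and was called in all 12 fits that left out 1 library. The cardiomyocyte markers fell in the same comparison, and their part in the lower genes of these lists was not tested. Over all 8 lists 12.3% were higher and 22.5% lower, against 14.0% and 18.0% of all genes.

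**Figure D5:**
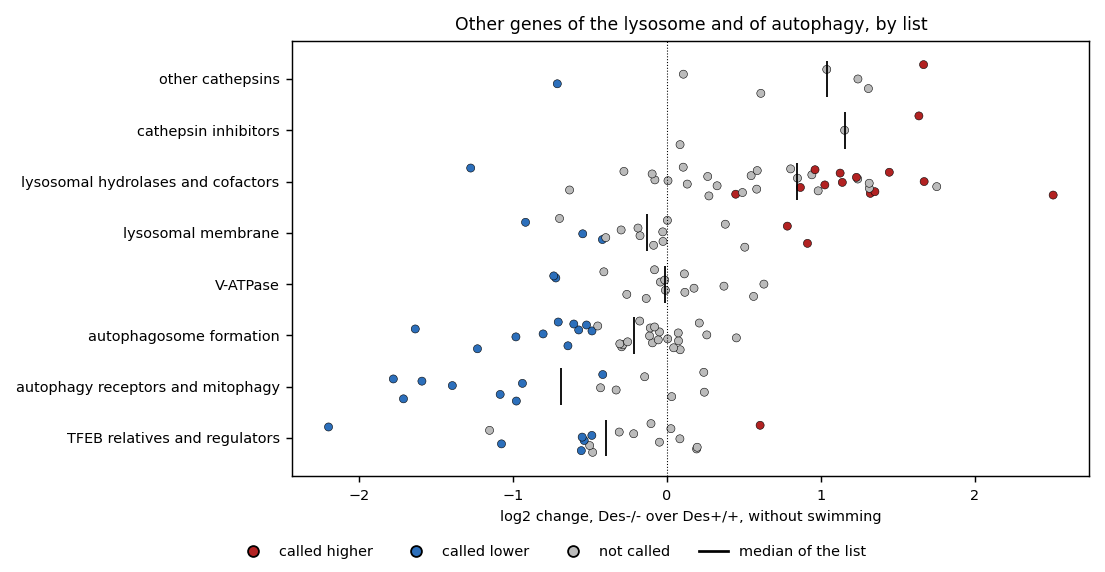
Log2 change (Des-/- over Des+/+, without swimming) of 138 tested genes in 8 lists, 1 point per gene, red for called higher, blue for called lower and grey for not called, with a vertical bar at each list's median. Red points lie mostly among the hydrolases (12 of 35) and blue points among the autophagy lists (10 of 30 and 8 of 14). Of all genes, 14.0% were called higher and 18.0% lower.

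After swimming 3 of the 138 genes were called higher and 9 lower, which is 2.17% and 6.52%, against 5.01% and 5.57% of all genes. Tmem175, a lysosomal ion channel, changed by 0.88 (SE 0.23, edgeR adjusted p 0.0375). Tmem106b changed by -0.61 (SE 0.14, adjusted p 0.0252), Gabarapl2, of the LC3 family, by -0.53 (SE 0.14, adjusted p 0.0368), and Bnip3, a mitophagy receptor, by -0.83 (SE 0.20, adjusted p 0.0281). Rragd, which was lower without swimming too, changed by -1.41 (SE 0.33, adjusted p 0.0256). Each of these 5 genes was called in 4 to 8 of the 12 fits that left out 1 library. The number called in all 8 lists was 21 without Des-/- non-swim library 3, where 16.1% of all genes were called. It was 6 without Des+/+ non-swim library 3 and 7 without Des-/- non-swim library 1 (6.95 and 8.6% of all genes). Without library 1, 2 or 3 of the Des+/+ swim group it was 3, 3 and 0 (4.19, 6.11 and 0.55% of all genes). Without those of the Des-/- swim group it was 1, 2 and 1 (3.76, 4.74 and 4.97% of all genes). No pathway gene was called with edgeR for swimming in either genotype or for the interaction, where 21, 23 and 17 of the 138 had an unadjusted p under 0.05 (20.5%, 16.7% and 16.3% of all genes). In the same comparisons DESeq2 called 4, 1 and 1 of the pathway genes, against 6.06, 2.58 and 2.27% of all genes.

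For each of the 10 genes the 3 others most alike over the 12 libraries were found by Pearson r of log2 CPM among all genes tested. Ctss was most like Lyz2 (r = 0.989), Alox5ap and Mpeg1, of which Lyz2 codes for a lysozyme of macrophages and is also in the macrophage list. Ctsk was most like Lrrc17 (0.983), Mmp14 and Col26a1, of which Mmp14 codes for a membrane matrix metalloproteinase. Map1lc3b was most like Pgp (0.957), Mrpl4 and Ndufa8, and the latter code for a mitochondrial ribosomal protein and a subunit of respiratory complex I. With group means removed these 3 leading values were 0.984, 0.969 and 0.840, and over 10 libraries without library 3 of the Des-/- groups 0.892, 0.969 and 0.947.

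Ctsb was most like Lgmn (r = 0.987), which codes for the lysosomal protease legumain, then Galc and Asah1. Ctsd was most like Surf4 (0.960), with Atp6v0c also among its 3, and Ctsl like P4hb (0.971), Pim1 and Lrp12. Galc and Asah1 code for lysosomal hydrolases. Over the 10 libraries the leading values fell to 0.899 for Ctsb, 0.887 for Ctsd and 0.717 for Ctsl. Lamp1 and Lamp2 were both most like Pon3 (0.952 and 0.955), Sqstm1 like Rit1 (0.914) and Tfeb like Rita1 (0.922). These values describe libraries that share genotype, swimming, depth and cell mix.

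Some of the 10 genes overlap others in the annotation. Ctsd shares 808 exon bases with Gm49369 and Ctsl 395 with the pseudogene Gm49230. Both of these other genes are on the same strand, and neither has an entry in the count files used here. Whether reads in the shared bases were dropped as ambiguous cannot be told from the counts. In all, 0.143 to 0.382% of uniquely aligned reads were ambiguous between genes. Lamp1 shares 249 bases with Grtp1 on the opposite strand, which had 2 to 24 reads where Lamp1 had 2369 to 11198, and Sqstm1 shares 580 with Mrnip, which had 9 to 46. Also on the opposite strand, Ctsb shares 774 with Fdft1, which had 67 to 538 reads where Ctsb had 2021 to 41555. Map1lc3b shares 58 with Zcchc14, which had 643 to 1614 reads where Map1lc3b had 955 to 2323. Ctsl shares 1742 with the antisense gene Gm47123, which has no entry in the files used. The authors counted reads by strand.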

How the data were processed

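The authors aligned 100-base single-end poly-A reads with HISAT2 2.2.1 to GRCm38 and counted reads per gene with HTSeq-count in reverse-strand mode. The labels name an unstranded TruSeq kit and the methods a directional one, and of 4 counted genes opposite the 10 genes 2 had at most 46 reads and 2 up to 538 and 1614. The deposited values are raw counts per gene, 21493 genes in each of 12 files, with 4320819 to 12072443 reads in genes. A further 5 summary rows name no gene and were left out, and 34 to 64.5% of uniquely aligned reads lay in no gene. From the counts, edgeR 4.0.16 (R 4.3.3) gave TMM factors, a filter on low counts (13158 genes kept) and quasi-likelihood tests in 1 model of 4 group means over all 12 libraries, with Benjamini-Hochberg adjustment over all genes and a threshold of 0.05. The floor of 3 counts covers counting error only, while the SEs of the edgeR log2 changes include the spread between libraries. The BCV, edgeR's measure of spread between replicates, was 0.271 in common.

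The 10 genes and all lists were chosen with earlier results of these data known. Pathway genes were named as the called gene with the largest rise and the largest fall of each list in each genotype comparison, and genes alike in pattern as the 3 with the highest Pearson r. Some genes that these rules name are not reported here. Of the marker lists, the most abundant gene was taken. Replicates of a group differed by more than sampling noise. Alternatives were RLE and upper-quartile scaling, no filter, DESeq2 1.42.0, fits to the compared libraries only, the study's filter (a log2 change of at least 0.6, unadjusted p of at most 0.05 and a mean count of at least 20), a block on the replicate number, and fits with any 1 library or both Des-/- replicates 3 removed. The tests were tried on simulated counts drawn gene by gene, in which no library stood apart. That trial does not cover data with 1 library far from its group. Exon lengths came from GENCODE M21, promoters from RefSeq. In the pairing check, deviations of same-numbered libraries from their group means correlated at 0.365, 0.316 and 0.602 for swimming in Des-/-, above 0.1 in each. In the other comparisons they were not above 0.1 in each. Library 3 stands apart in both Des-/- groups, and with 3 libraries a group this alone can give such values. The check therefore cannot show pairing, and neither the labels nor the methods pair the libraries.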

Additional observations from a re-analysis of the deposited data

How the results depend on the processing

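Without swimming the number of the 10 genes called was 2 to 4 under the alternatives other than single left-out libraries, and 0 to 5 when 1 library was left out. Of all genes, 22.5 to 36.4% and 19.5 to 34.4% were called in these fits. In each of the other 4 comparisons the number of the 10 genes called was 0 to 0 when 1 library was left out and 0 elsewhere. The exception was swimming in Des-/- under the study's filter, which uses unadjusted p, where it was 5, against 8.6% of all genes. Pathway genes called ranged over left-out libraries from 24 to 55 without swimming (48 with all), 0 to 21 after swimming (12 with all), 0 to 2 for swimming in Des+/+ and 0 to 0 for swimming in Des-/- and for the interaction. Over the same fits 19.5 to 34.4% of all genes were called without swimming, 0.55 to 16.1% after swimming and 0 to 1.17% for swimming in Des+/+. With only the compared libraries the pathway genes called were 28, 7 and 2 for the first 3 of these comparisons, against 26.5, 8.66 and 2.25% of all genes. DESeq2 called 19 pathway genes after swimming, 4 and 1 for swimming in Des+/+ and Des-/-, and 1 for the interaction, and the study's filter 8, 12 and 12 for the last 3. The shares of all genes were 17.7, 6.06, 2.58 and 2.27% with DESeq2, and 10.3, 8.6 and 13% with that filter. Without both Des-/- replicates 3 the pathway genes called were 3 and 1 for swimming in Des+/+ and Des-/-, against 5.62 and 0.545% of all genes.

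Signs turned without both Des-/- replicates 3 for Ctsb (-0.17 without and -0.24 after swimming), Ctsd (-0.95 without swimming, 0.25 for swimming in Des-/-, 0.71 for the interaction), Lamp2 (-0.11 without swimming), Ctss (-0.22 after swimming), Lamp1 (0.016, interaction), and for swimming in Des+/+ Ctsl (0.059) and Map1lc3b (0.021). With only the compared libraries the last 2 were 0.052 and 0.014, and with no filter Ctsl was 0.017. With upper-quartile scaling Ctsd after swimming was 0.036. For these the cause was not tested.

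Over single left-out libraries, log2 changes that crossed 0 without swimming ranged from -0.24 to 1.58 for Ctsb, -1.02 to 0.73 for Ctsd, -0.0080 to 1.22 for Ctsl and -0.17 to 0.27 for Lamp2. After swimming they ranged from -0.25 to 0.29 for Ctsb, -0.25 to 0.068 for Ctsd, -0.36 to 0.035 for Ctsl and -0.23 to 1.83 for Ctss. For swimming in Des-/- they ranged from -1.78 to 0.045 for Ctsb, -1.34 to 0.42 for Ctsd, -4.48 to 0.55 for Ctss, -0.42 to 0.0079 for Lamp1 and -0.041 to 0.28 for Tfeb. For swimming in Des+/+ they ranged from -0.48 to 0.21 for Ctsk, -0.087 to 0.024 for Ctsl, -0.13 to 0.023 for Map1lc3b, -0.27 to 0.11 for Sqstm1 and -0.028 to 0.083 for Tfeb. For the interaction they ranged from -1.48 to 0.34 for Ctsb, -0.79 to 0.96 for Ctsd, -4.74 to 0.27 for Ctss, -0.23 to 0.18 for Lamp1 and -0.053 to 0.27 for Tfeb.

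With the replicate number as a block, 2 of the 10 genes were called without swimming (Ctsk at 1.63, edgeR adjusted p 0.00311, and Map1lc3b), and Ctss at 2.94 (adjusted p 0.0605) was not. Pathway genes called were 49 without and 10 after swimming, against 31 and 9.95% of all genes. In the comparison without swimming the check gave no sign of pairing, as deviations of same-numbered libraries correlated at -0.153, 0.134 and -0.105. For swimming in Des-/- the values were above 0.1 in each, which does not show pairing. There the block called 0 of the 10 genes, as did the fit without it. Ctss also missed the threshold with only the compared libraries (adjusted p 0.0554).

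With 3 pooled libraries a group and 1 far from the others, changes the size of those of Ctsb and Ctsl were not resolved. The 10 genes have 58 reads or more in every library, so counting error is small beside the spread between libraries. All-gene calls without swimming were 4210 with edgeR, 4790 with DESeq2 and 4212 with the study's filter, and after swimming 1392, 2332 and 2313. After swimming 659 were higher and 733 lower, against 948 and 456 with upper-quartile scaling.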
